A study of Mus musculus with 3 samples.

Results

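Platelet-derived growth factors (PDGFs) are secreted proteins that act through a pair of receptor tyrosine kinases. The open chromatin of their genes was followed here in mouse forelimb cells traced from mesenchymal progenitors (MPs). According to the paper, cells of this lineage had differentiated by E16.5. The 7 genes taken were the receptors Pdgfra and Pdgfrb, the ligands Pdgfa, Pdgfb, Pdgfc and Pdgfd, and Pdgfrl, which encodes a receptor-like protein without a kinase domain. Every called peak that overlapped a gene body or the 20 kb on either side of it was taken, which gave 246 of 506515 peaks, with 99 in the E12.5 list, 49 in that of E14.5 and 98 in the E16.5 list. Where peaks of different libraries touched they were joined, giving 129 regions (of 266531 in all), and 38 of these held a peak of all 3 libraries and are called common regions here (of 82930 autosomal ones). Accessibility is given as CPM, the counts per 1000000 counts in autosomal common regions of the same library, and all 38 had a mean CPM of at least 1, the minimum applied. At 14 of the 38 each library had exactly 1 peak and each pair of peaks overlapped by at least 50% of both widths; these are called matched positions.

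Single-nucleus ATAC-seq, in which a transposase cuts open chromatin and the cut sites are counted per peak and nucleus, had been run on 1 library per stage (E12.5, E14.5, E16.5), the order in which values at 3 stages are given throughout. All 3 came from C57BL/6J embryos labelled Hic1CreERT2/CreERT2;Rosa26LSLtdTomato/tdTomato, whose dams had received 7.5 mg tamoxifen at embryonic day 10, and no library without tamoxifen or without Cre was analysed here. The reporter therefore marks cells in which the Hic1 promoter drove CreERT2 at the time of tamoxifen, and their descendants. According to the methods, forelimbs at E12.5 were dissociated with Dispase and those at E14.5 and E16.5 with Collagenase A and Pronase, tdTomato+ cells were sorted, and cells that carried Ter119, F4/80, CD11b, CD31, CD117 or CD45 were excluded. Stage, dissociation and library cannot be told apart wherever E12.5 is compared with a later stage, including E12.5 against E16.5, and stage and library cannot be told apart from E14.5 to E16.5. The file headers name software version 1.0.1 for E12.5 and E14.5 and 1.2.0 for E16.5. In comparisons with E16.5 this version cannot be told apart from stage either. How many embryos went into each library is not given in the sources used here.

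The libraries held 8294, 20023 and 14048 nuclei with a median of 6003.5, 8575 and 26694 counts per nucleus, and 87048167 to 413425059 counts in all. The E14.5 library stood apart, with 58.67% of its counts in common autosomal regions at promoters against 50.81% at E12.5 and 49.96% at E16.5, and with only 76.02 Mb of common region called as peak against 108.8 and 124.0 Mb. Between 151 and 401 barcodes were present in both libraries of a pair, and 6 in all 3. All 7 MP marker loci, Hic1 among them, held a common region, and their summed accessibility was 886.7 to 1038.5 CPM. With 1 library per stage there is no replicate error and no test. Intervals are exact at 95% and cover counting error only. "Higher" and "lower" below mean past 1.5-fold unless a value is given, and no library stands in for a replicate of another.

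As background, PDGF-A and PDGF-C act mainly through the receptor that Pdgfra encodes, PDGF-B through both receptors and PDGF-D mainly through the receptor that Pdgfrb encodes. PDGF-A and PDGF-B are processed inside the cell, whereas PDGF-C and PDGF-D are secreted with a CUB domain that proteases must remove. In the limb Pdgfra is known as a marker of mesenchymal and fibroblast lineages and Pdgfrb of pericytes and other perivascular cells, whose recruitment to vessels depends on PDGF-B from endothelium.

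The sequences that the changes below refer to are given first, from RefSeq (GRCm38.p6), to show which DNA is meant. The promoters are the 250 bases before the RefSeq start, for 4 of the genes. Distances in this report are measured from the start in the GENCODE annotation, which can differ. The Pdgfa window lies inside the gene as GENCODE places it. Pdgfb and Pdgfrl had no entry, and sequences of Pdgfrb are not reported here. For Pdgfd the 123 bases that an annotated exon covers are left out. Capitals mark short motifs on either strand: the GC box (GGGCGG), the TATA box (TATAAA), the CCAAT box (CCAAT), AP-1 (TGANTCA), RUNX (TGTGGT) and TEAD (GGAATG), none of which overlapped another here.
Pdgfra promoter, chr5:75152001-75152250, plus strand: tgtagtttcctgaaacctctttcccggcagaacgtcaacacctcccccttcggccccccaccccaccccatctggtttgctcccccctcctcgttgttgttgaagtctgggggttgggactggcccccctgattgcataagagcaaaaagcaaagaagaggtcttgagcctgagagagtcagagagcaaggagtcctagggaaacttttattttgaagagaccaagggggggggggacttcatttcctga
Pdgfa promoter, the farther upstream of 2 entries, chr5:138994945-138995194, minus strand: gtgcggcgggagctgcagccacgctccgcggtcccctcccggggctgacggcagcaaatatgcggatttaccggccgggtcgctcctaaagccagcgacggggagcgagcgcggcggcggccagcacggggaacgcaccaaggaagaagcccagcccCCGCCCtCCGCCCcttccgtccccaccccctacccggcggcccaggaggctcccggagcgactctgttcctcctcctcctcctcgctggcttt
Pdgfc promoter, chr3:81036166-81036415, plus strand: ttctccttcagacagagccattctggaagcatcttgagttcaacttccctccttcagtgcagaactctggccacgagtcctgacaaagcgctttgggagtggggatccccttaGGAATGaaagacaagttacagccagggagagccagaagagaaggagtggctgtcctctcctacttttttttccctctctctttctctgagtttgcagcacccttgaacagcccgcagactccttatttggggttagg
Pdgfd promoter, chr9:6168236-6168362, plus strand: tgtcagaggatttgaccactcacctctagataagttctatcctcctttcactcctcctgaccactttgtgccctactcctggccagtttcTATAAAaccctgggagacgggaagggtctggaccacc

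The Pdgfa promoter held 2 GC boxes, which 32.72% of 32817 promoter windows of 250 bases also held at least once, and 72.40% of its bases were G or C, against a median of 52.40% over all windows. The Pdgfd promoter held a TATA box, as did 12.37% of all windows, and the Pdgfc promoter a TEAD motif, as did 12.64%. The Pdgfra window held none of the 6 motifs. A match describes these letters only.

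The regions with the largest change from E12.5 to E16.5 follow, as 300 bases from the middle of each, read on the plus strand. The first pair holds the largest rise and the largest fall among all common regions of the genes other than Pdgfrb. The second pair holds the same at matched positions and was added after the values were seen. Of the Pdgfra window only the 136 bases outside annotated exons are shown, since 164 lay in an exon.
Pdgfa, 31.36 kb from the start and downstream of the gene, chr5:138965863-138966162: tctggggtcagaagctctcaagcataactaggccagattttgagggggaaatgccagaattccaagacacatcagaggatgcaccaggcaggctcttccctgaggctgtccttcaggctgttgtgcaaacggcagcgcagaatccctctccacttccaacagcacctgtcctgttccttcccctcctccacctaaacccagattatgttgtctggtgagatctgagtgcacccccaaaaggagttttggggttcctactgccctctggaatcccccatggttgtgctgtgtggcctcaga
Pdgfc, 113.0 kb into the gene, intron, chr3:81149218-81149517: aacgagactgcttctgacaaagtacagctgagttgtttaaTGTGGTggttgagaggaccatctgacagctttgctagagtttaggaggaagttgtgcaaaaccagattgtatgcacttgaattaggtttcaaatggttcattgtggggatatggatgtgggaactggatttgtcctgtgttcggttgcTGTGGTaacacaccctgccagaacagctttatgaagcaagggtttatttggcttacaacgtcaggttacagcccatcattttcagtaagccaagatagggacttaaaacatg
Pdgfra, 22.67 kb into the gene, chr5:75174809-75174944: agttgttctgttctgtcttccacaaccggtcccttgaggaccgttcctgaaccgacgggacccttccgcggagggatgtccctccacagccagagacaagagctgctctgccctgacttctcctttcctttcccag
Pdgfc, 10.82 kb into the gene, intron, chr3:81047088-81047387: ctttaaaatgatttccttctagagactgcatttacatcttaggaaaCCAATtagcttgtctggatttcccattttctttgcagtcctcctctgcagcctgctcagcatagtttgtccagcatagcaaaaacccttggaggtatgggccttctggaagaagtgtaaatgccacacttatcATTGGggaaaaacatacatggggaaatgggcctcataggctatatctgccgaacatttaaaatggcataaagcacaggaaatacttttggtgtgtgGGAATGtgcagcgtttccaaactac

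The Pdgfc window at 113.0 kb held 2 RUNX motifs, which 21.77% of 65499 such windows at autosomal common regions outside promoters held at least once. The Pdgfc window at 10.82 kb held 2 CCAAT boxes and 1 TEAD motif, present in 33.16% and 20.80% of windows. AP-1, present in 12.24% of these windows and 6.753% of promoters, was in none of the 8 printed sequences.

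From E12.5 to E16.5 the ligand loci Pdgfc and Pdgfd lost accessibility, Pdgfb lost some of it at its promoter, and the summed level of both receptor loci and Pdgfa stayed inside 1.5-fold. Outside the promoter, Pdgfra went from 18.56 to 45.74 CPM and Pdgfa from 9.254 to 18.66 CPM, but their called width there also grew, and per kb they held 4.486 and 5.732 CPM and 4.868 and 5.124 CPM, log2 ratios of 0.35 and 0.07, under the threshold. Summed over common regions, the Pdgfc locus went from 111.1 CPM (107.7 to 114.5) through 84.14 to 53.13 CPM (52.04 to 54.23), a log2 ratio of -1.06 (-1.12 to -1.01). The Pdgfd locus went from 66.40 through 27.92 to 27.52 CPM, a log2 ratio of -1.27 (-1.34 to -1.20), with nearly all of its loss between E12.5 and E14.5; per kb of called width those 2 steps had log2 ratios of 0.09 and -0.78, so when the loss fell depends on the width. Both ratios kept their sign under all 10 alternatives run, between -1.53 and -0.54 for Pdgfc and between -1.35 and -0.69 for Pdgfd, all past the threshold except the Pdgfc promoter on its own (-0.54). Per kb of called width Pdgfc was at -0.61, Pdgfd at -0.69 and Pdgfb at -0.60. That scale leaned downward over the genome, with a median of -0.19 over 15940 autosomal protein-coding genes, so these per-kb values are partly shared with all genes. In summed CPM, Pdgfc and Pdgfd were the 2 loci of the 7 past 1.5-fold. Among 15940 autosomal protein-coding genes, summed over the gene body and 2000 bp upstream, 6.25% were higher and 8.34% lower.

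The Pdgfb locus measured 47.60, 58.81 and 33.98 CPM, so it was highest at E14.5 and its log2 ratio of E16.5 over E12.5 was -0.49 (-0.56 to -0.41), inside the threshold, but -0.60 per kb of called width and -0.74 at its own promoter alone, both past it. Pdgfra measured 157.2, 182.7 and 171.8 CPM, Pdgfrb 117.4, 106.1 and 113.5 CPM, Pdgfa 69.96, 81.13 and 77.98 CPM, and Pdgfrl 62.89, 56.81 and 65.57 CPM. The log2 ratios of these 4 loci from E12.5 to E16.5 lay between -0.05 and 0.16. Those of Pdgfra, Pdgfa and Pdgfrl turned negative per kb of called width (-0.24, -0.07 and -0.24), so no direction is read for them.

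Levels of different genes can be set side by side only per kb of called peak. On that scale and with promoters included, Pdgfra was the most open locus at each stage, with 11.35, 13.84 and 9.642 CPM per kb. Pdgfrb, whose sum includes the Cdx1 promoter, held 6.612, 9.340 and 5.380 CPM per kb. The other 5 loci spanned 7.256 to 10.15 CPM per kb at E12.5 and 5.486 to 7.547 CPM per kb at E16.5. Over all 7 loci these levels were higher at E14.5 than at either other stage, where the called peaks were narrower. The rank of Pdgfra rests on its promoter. Outside the own promoter it held 4.486 CPM per kb at E12.5, above only Pdgfrb (4.154), while Pdgfc held 8.779. At E14.5 and E16.5 it held 7.298 and 5.732 there, against 13.65 and 7.663 for Pdgfb. Among own promoters Pdgfd was higher at E12.5 (16.01 against 14.27) and Pdgfc at E14.5 (16.84 against 16.30), and Pdgfra was highest at E16.5 (12.81).

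**Figure D1:**
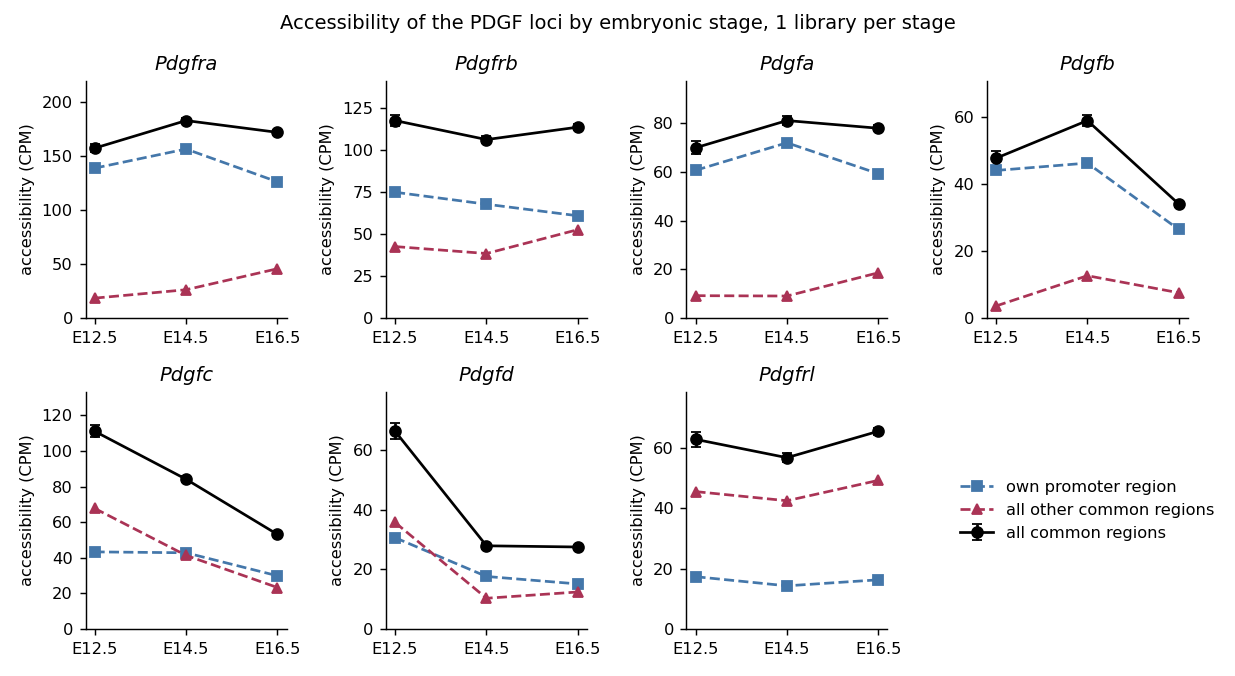
Accessibility in CPM (y axis, from 0) of each PDGF locus by stage (x axis, E12.5, E14.5, E16.5), as the sum over common regions (circles, bars show exact 95% counting intervals), the own promoter region (squares) and the other common regions (triangles), with 1 library per stage. Pdgfc goes from 111.1 to 53.13 CPM and Pdgfd from 66.40 to 27.52 CPM, while the triangles of Pdgfra go from 18.56 up to 45.74 CPM.

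Counted region by region, the 38 member regions past 1.5-fold are set beside the shares of all regions, and the differences were not tested. From E12.5 to E16.5, 7 were higher and 10 lower (18.42% and 26.32%), beside 26.4% higher and 25.7% lower among 82282 autosomal common regions. From E12.5 to E14.5, 5 were higher and 15 lower (13.16% and 39.47%, beside 17.6% and 33.5% of all regions). From E14.5 to E16.5, 12 were higher and 8 lower (31.58% and 21.05%, beside 32.2% and 14.1%). Over the 59 member regions with a peak at E12.5 and E16.5, whatever the E14.5 list held, 10 were higher and 22 lower. These are 16.95% and 37.29%, beside 28.79% and 27.84% of all such regions. Of the 8 promoter regions, which include the Cdx1 promoter in the Pdgfrb window, 0 were higher and 2 lower from E12.5 to E16.5, beside 9.52% and 12.5% of 17407 promoter regions. Of the 30 others, 7 were higher and 8 lower, beside 30.9% and 29.2%.

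The steps that involve E14.5 depend on the called width. Per kb of called width, 14 member regions were higher and 0 lower from E12.5 to E14.5, and 1 was higher and 21 lower from E14.5 to E16.5, while all regions moved the same way (35.31% higher and 4.333% lower, then 2.455% and 46.45%). From E12.5 to E16.5 the same scale gave 5 higher and 12 lower, beside 14.15% and 24.25% of all regions. The description of single regions therefore rests on E12.5 against E16.5, with the E14.5 value beside it.

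The counts by gene were as follows. From E12.5 to E16.5, 5 of 7 common regions of Pdgfc and 4 of 5 of Pdgfd were lower and 0 higher. For Pdgfra 3 of 7 and for Pdgfa 2 of 5 were higher and 0 lower. Pdgfrb had 1 of 6 higher, Pdgfb 1 higher and 1 lower of 2, and Pdgfrl 0 of 6 in either direction. These counts stand beside the 26.4% higher and 25.7% lower of all regions, and each rests on 2 to 7 regions.

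**Figure D2:**
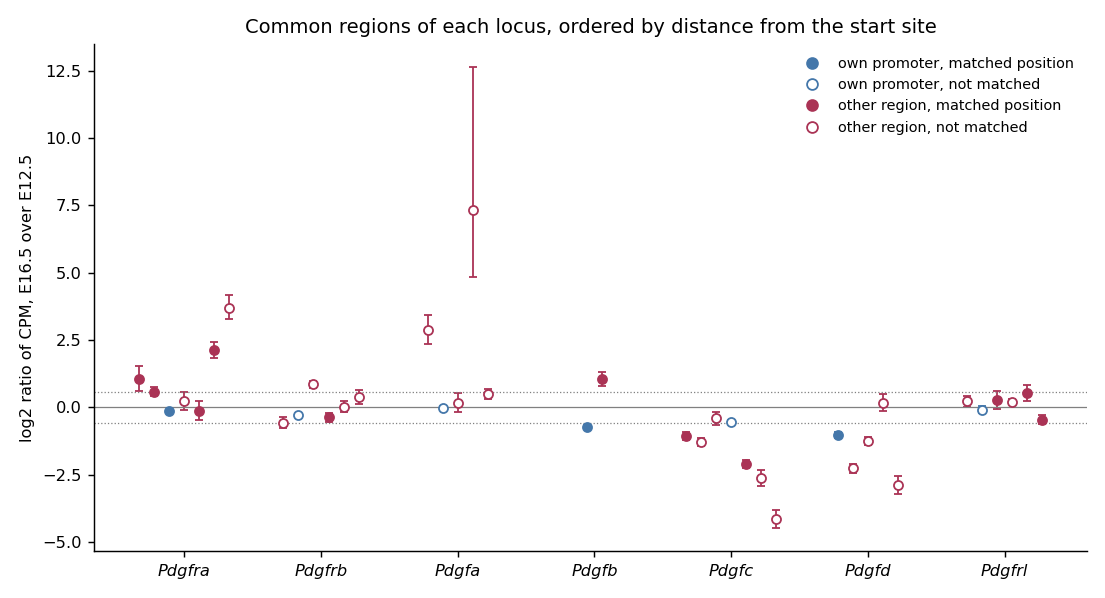
Log2 ratio of CPM at E16.5 over E12.5 (y axis) for each of the 38 common regions, grouped by gene (x axis) and ordered by distance from the start site; blue marks own promoters, red other regions, filled symbols matched positions, bars exact 95% counting intervals and dotted lines 1.5-fold. All 7 Pdgfc points lie below 0, from -0.40 to -4.13, and the highest point, of Pdgfa at 7.33, rests on 1 count at E12.5.

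Pdgfra (chr5:75152292-75198215, plus strand) encodes the receptor for PDGF-A and PDGF-C. Its promoter lay in a broad region of 9842 bp, a matched position, that held 138.7, 156.4 and 126.1 CPM, with a log2 ratio of -0.14 (-0.18 to -0.09). A count was found there in 30.15%, 46.34% and 63.50% of nuclei, shares that also follow the depth of the libraries. The promoter made up 88.19% of the locus at E12.5 and 73.38% at E16.5, with the other regions together called over 4.138 kb at E12.5 and 7.980 kb at E16.5.

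Inside the Pdgfra gene, 2 regions held more counts at E16.5, in part over wider peaks. At 22.67 kb from the start (chr5:75174303-75175615, overlapping an exon) accessibility was 2.675, 4.467 and 11.66 CPM, a log2 ratio of 2.12 (1.84 to 2.42), and this was a matched position. Its called width went from 765 to 1313 bp, and per kb the log2 ratio was 1.34. At 32.31 kb (chr5:75183008-75186188) it was 1.027, 2.794 and 13.34 CPM, a log2 ratio of 3.70 (3.27 to 4.16). There the called width went from 371 to 3181 bp over E12.5 to E16.5, and per kb the log2 ratio was 0.60, barely past the threshold. In CPM both regions were in order of stage, lowest at E12.5 and highest at E16.5.

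Upstream of Pdgfra, the most open region outside the promoter, at -8.795 kb, held 9.376, 11.69 and 14 CPM, a log2 ratio of 0.58 (0.42 to 0.74) that just missed the threshold at 1.493-fold. A matched region at -17.53 kb, named after its values were seen, was highest at E14.5, with 0.9862, 4.946 and 2.031 CPM. Its log2 ratio of E16.5 over E12.5 was 1.04, but its width went from 358 to 589 bp, and per kb the ratio was 0.32, under the threshold. The remaining regions, at 8.444 and 12.58 kb in introns, had log2 ratios of 0.23 and -0.13.

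**Figure D3:**
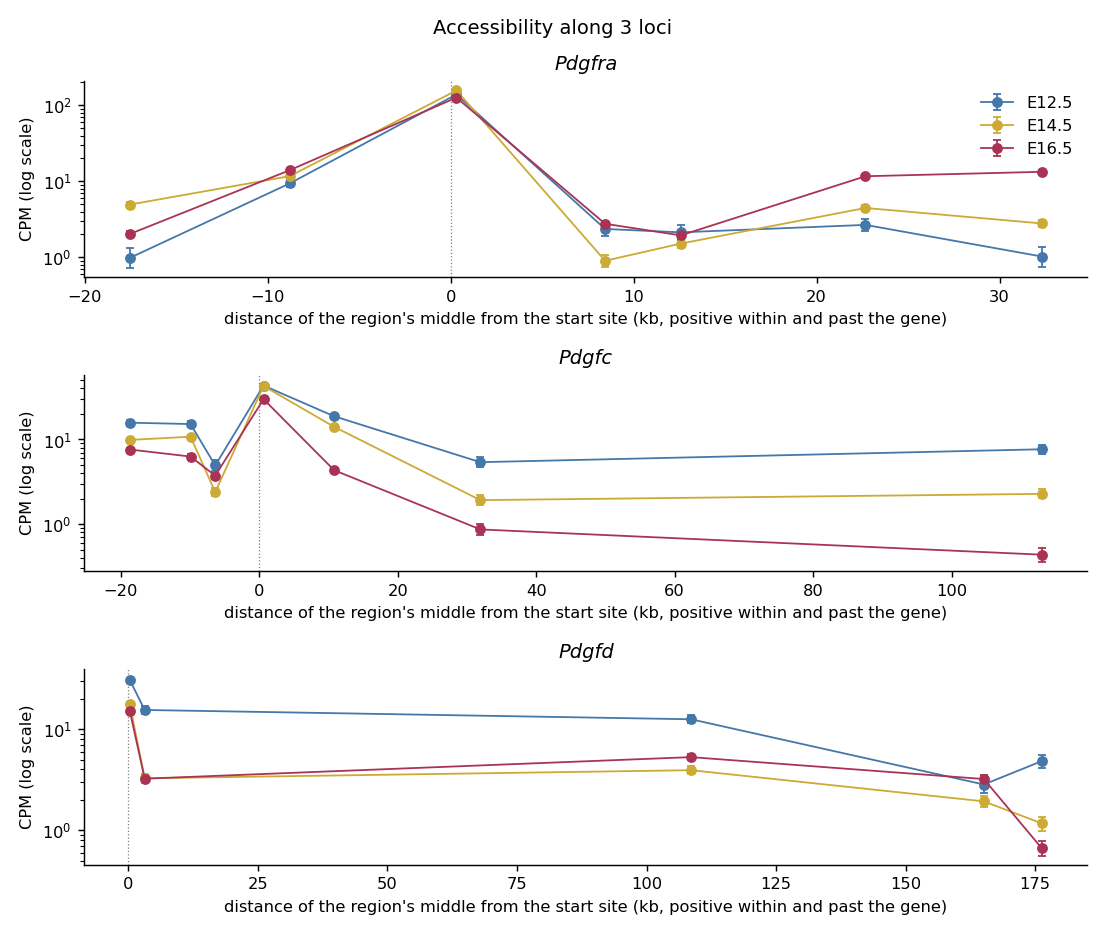
Accessibility in CPM (y axis, log scale) of the common regions of Pdgfra, Pdgfc and Pdgfd against the distance of each region's middle from the start site in kb (x axis), for E12.5 (blue), E14.5 (yellow) and E16.5 (red) with exact 95% counting intervals; lines only join points of 1 library. E16.5 lies above E12.5 at 22.67 and 32.31 kb of Pdgfra and below it at every Pdgfc point.

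Pdgfrb (chr18:61045150-61085061, plus strand) encodes the receptor for PDGF-B and PDGF-D. Its promoter region held 74.83, 67.71 and 60.84 CPM, a log2 ratio of -0.30 (-0.36 to -0.24). In summed CPM the intronic region at 9.717 kb was its most open other region and its largest rise. It held 16, 22.98 and 28.97 CPM, a log2 ratio of 0.86 (0.73 to 0.98), in order of stage in CPM. Per kb it held 3.656, 8.126 and 5.016 CPM, less than the 7.337, 8.553 and 5.375 CPM of the region at 23.04 kb. The rest of this paragraph's widths for the intronic region are those at 9.717 kb. The width of the region at 9.717 kb went from 4375 to 5775 bp, and per kb its log2 ratio was 0.46, under the threshold. Among the common regions of Pdgfrb the largest fall was at the promoter of Cdx1, a homeobox gene upstream, with 7.228, 4.416 and 4.865 CPM and a log2 ratio of -0.57. At matched positions Pdgfrb had 1 region, in an intron at 14.04 kb, with a log2 ratio of -0.37, and -0.80 per kb, where its width went from 1227 to 1650 bp. Per kb the Cdx1 region changed by -0.36 on the log2 scale, so the order of these falls depends on the width.

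Pdgfa (chr5:138976014-138997370, minus strand) encodes the ligand that binds only the receptor alpha chain. Its promoter region held 60.70, 72.02 and 59.33 CPM, a log2 ratio of -0.03 (-0.10 to 0.03), so E12.5 and E16.5 did not differ beyond counting error. The most open other region, 40.70 kb from the start and downstream of the gene, held 6.404, 4.895 and 9.026 CPM, a log2 ratio of 0.50. The upstream region at -17.86 kb (chr5:139014789-139015673) held 0.6890, 0.7546 and 5.033 CPM, a log2 ratio of 2.87 (2.35 to 3.45), with 289 bp called in the E12.5 library and 885 bp in that of E16.5, and 1.25 per kb. The downstream region at 31.36 kb held 1, 607 and 720 counts, which is 0.01351, 3.095 and 2.166 CPM and a log2 ratio of 7.33 (4.84 to 12.63) for E16.5 over E12.5. The E12.5 peak covered only 81 bp of it against 662 and 738 bp, so the E12.5 value is not that of the same interval. No common region of Pdgfa was a matched position.

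Pdgfb (chr15:79995874-80014977, minus strand) encodes the ligand of both receptors. Its 2 common regions were matched positions and went opposite ways. The promoter held 43.96, 46.16 and 26.40 CPM, level from E12.5 to E14.5 and lower at E16.5, with a log2 ratio of -0.74 (-0.82 to -0.65). The region downstream of the gene, 34.02 kb from the start (chr15:79980460-79981448), held 3.634, 12.65 and 7.578 CPM, highest at E14.5, with a log2 ratio of 1.06 (0.80 to 1.33) and 0.59 per kb.

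Pdgfc (chr3:81036416-81214040, plus strand) encodes a ligand of the receptor alpha chain with a CUB domain. Its promoter region held 43.30, 42.80 and 29.86 CPM, a log2 ratio of -0.54 (-0.62 to -0.45), inside the threshold. Outside the promoter the locus went from 67.75 CPM at E12.5 to 23.27 CPM at E16.5, a log2 ratio of -1.54. The region with the highest mean CPM over the stages among these, the intronic matched position at 10.82 kb (chr3:81046446-81048029), held 18.79, 14.10 and 4.338 CPM, a log2 ratio of -2.12 (-2.26 to -1.97). Its called width changed little, from 1546 to 1340 bp, and per kb the log2 ratio was -1.91.

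The largest fall among the 38 common regions was at 113.0 kb in a Pdgfc intron (chr3:81148922-81149813), with 7.660, 2.279 and 0.4362 CPM and a log2 ratio of -4.13 (-4.47 to -3.81). Its called width went from 892 to 217 bp, and per kb the log2 ratio was -2.10. The other Pdgfc regions past the threshold were at -18.67 kb (-1.05, matched), -9.909 kb (-1.28) and 31.93 kb (-2.64), all named after their values were seen. The called width of the latter pair went from 1971 to 967 bp and from 1384 to 394 bp, and per kb their log2 ratios were -0.25, inside the threshold, and -0.82. All 7 Pdgfc regions held less at E16.5 than at E12.5 on both scales, whereas the place of E14.5 between them depended on the width.

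Pdgfd (chr9:6168584-6378850, plus strand) encodes the other ligand with a CUB domain, which acts on the receptor beta chain. Its promoter, a matched position, held 30.65, 17.62 and 15.11 CPM, a log2 ratio of -1.02 (-1.12 to -0.92), and it and the Pdgfb promoter were the member promoters past the threshold. The intronic region at 3.155 kb held 15.52, 3.268 and 3.240 CPM, a log2 ratio of -2.26 (-2.43 to -2.09), with a called width that went from 1888 to 690 bp and a log2 ratio of -0.81 per kb. The largest fall among its common regions, in an intron at 176.3 kb, was from 4.837 through 1.168 to 0.6619 CPM, a log2 ratio of -2.87, while its called width went from 1105 to 298 bp and the log2 ratio per kb was -0.98. The region at 165.1 kb, overlapping an exon, was the exception, with 2.837, 1.932 and 3.213 CPM and a log2 ratio of 0.18 (-0.12 to 0.49).

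Pdgfrl (chr8:40926212-40990785, plus strand), the receptor-like gene, had no common region past the threshold from E12.5 to E16.5 in CPM. Its promoter region held 17.33, 14.29 and 16.29 CPM, a log2 ratio of -0.09 (-0.21 to 0.04). Most of its accessibility lay outside the promoter, which made up 24.84% to 27.56% of the locus. The intronic region at 37.70 kb, the most open in summed CPM, held 23.70, 25.11 and 27.48 CPM, a log2 ratio of 0.21. Its width went from 2593 to 4544 bp, and per kb the log2 ratio was -0.60, past the threshold in the other direction. Per kb it held 10.72 CPM at E14.5 and 6.048 CPM at E16.5, below the promoter region with 13.22 and 7.758 CPM. In CPM the extremes of its 6 regions were a log2 ratio of 0.53 at 44.25 kb and of -0.46 at 55.66 kb.

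Regions with a peak at E12.5 and E16.5 but not E14.5 held larger falls and also rises, and those given here were named after their values were seen. A Pdgfd intron at 71.49 kb (chr9:6239342-6240805) went from 6.755 to 0.05114 CPM, a log2 ratio of -7.045 (-7.85 to -6.34), but only 22 bp of it were called at E16.5 against 1464 bp at E12.5, and per kb the log2 ratio was -0.99. Downstream of Pdgfrb, the region at 59.10 kb went from 3.418 to 0.1835 CPM (-4.22, or -1.70 per kb), and those at 42.33, 51.43 and 55.33 kb had log2 ratios of -1.29, -0.90 and -0.94, or -0.11, -0.74 and -0.55 per kb. Downstream of Pdgfra, the region at 48.31 kb went from 5.445 to 1.029 CPM (-2.40, or -0.70 per kb). In a Pdgfc intron at 22.34 kb accessibility went from 7.782 to 1.778 CPM (-2.13, or -1.75 per kb). The rises past the threshold were in an exon of Pdgfa at 8.604 kb, from 1.783 to 5.463 CPM (1.62, or -0.12 per kb), upstream of Pdgfc at -3.890 kb (0.69, or -0.41 per kb) and downstream of Pdgfrl at 78.56 kb (0.72, or 0.14 per kb). The widths of these peaks differed between the libraries, so both values are given.

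Regions called in 1 list only held at most 4.094 CPM at E12.5 and 4.317 CPM at E16.5. Of the 129 merged regions, 31 had a peak only at E12.5, 32 only at E16.5 and 0 only at E14.5, while 24 had peaks at E12.5 and E16.5 but not E14.5. The E14.5 list was also the shortest over the genome, with 102459 peaks against 190443 at E12.5 and 213613 at E16.5. The same shares over all merged regions were not taken, so these counts are not read as a trait of the members. In the E12.5 list alone, a region had a count in a median of 0.5064% of nuclei and at most in 1.688%, and in the E16.5 list alone in a median of 1.278% and at most 4.250%. The highest was in the Pdgfd gene, chr9:6325662-6326696, with 4.317 CPM at E16.5. More of these were at Pdgfc than at any other member, 12 only at E12.5 and 11 only at E16.5, and only Pdgfd is a longer gene.

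Marker loci of the lineages also differed between the stages. The summed accessibility of 11 fibrogenic loci was 401.7, 436.1 and 638.8 CPM, and that of 12 chondrogenic loci 1015.7, 748.9 and 669.9 CPM. The 9 pericyte loci held 353.2, 360.7 and 423.6 CPM, the 9 endothelial loci 366.5, 326.3 and 337.3 CPM, and the 6 epithelial loci 163.7, 116.2 and 140.7 CPM. Dermal fibrogenic (799.6 to 847.4 CPM), tenogenic (338.5 to 355.7 CPM), myogenic (121.7 to 169.8 CPM), Schwann (98.31 to 106.7 CPM) and blood loci (97.97 to 135.4 CPM) completed the lists. These loci had a value at every stage, and Higd1b, Tnmd, Ly6a, Emcn, Myf5, Cdh19, Krt5, Tyrobp and Laptm5 had no autosomal common region, the only kind used here. Loci on the sex chromosomes thus had no value whatever their peaks. In a sum over nuclei, fewer nuclei of a type and less opening per nucleus cannot be told apart, and the part of such changes in the PDGF values was not tested.

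Other genes of the pathway, 42 on a list of ligand processing, binding proteins, adaptors, enzymes, brakes, early targets and related receptors, stayed near the genome. Of the 41 with a value, 4 were higher and 2 lower from E12.5 to E16.5, beside 6.25% higher and 8.34% lower among 15940 autosomal protein-coding genes, and their median log2 ratio was 0.02 against 0.00. The largest rises were of Mapk3 (ERK1, a kinase downstream of the receptors), from 17.89 to 35.03 CPM, of Lrp1, a co-receptor, from 147.1 to 264.4 CPM, and of Ptpn1, a phosphatase that acts on receptor kinases, from 38.80 to 62.73 CPM. Plcg1, a phospholipase that binds the activated receptors, was the other gene past the threshold (0.63). The largest falls were of Dusp6, a phosphatase of ERK, from 159.0 to 99.92 CPM, of Flt3, a related receptor, from 32.82 to 20.74 CPM, and of Src, which at -0.52 was inside the threshold. In summed CPM none of the 5 ligand-processing genes, 8 adaptors or 5 early targets passed it in either direction. Per kb of called width 0 genes were higher and 3 lower, beside 1.487% and 11.24% of all genes. The 3 were the binding protein Sparc (-1.05), the ligand-processing gene St14 (-0.94) and Dusp6 (-0.59). Plcg1 was at -0.46 on that scale, inside the threshold and in the other direction.

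For opening in single nuclei, counts were drawn down to 1074 fragment equivalents (pairs of cut sites) per nucleus so that depth did not set the shares, which kept 6223, 20023 and 13796 nuclei. A locus was counted as open where at least 1 fragment equivalent remained in its common regions. Pdgfra was open in 13.87% (13.02 to 14.75), 16.82% and 15.67% of nuclei, against 32.75%, 51.21% and 71.65% before thinning. Pdgfrb was open in 11.39% (10.61 to 12.21), 10.47% and 10.78%. The share for Pdgfc went from 11.09% (10.32 to 11.89) through 8.750% to 5.415% (5.043 to 5.805), and that for Pdgfd from 6.846% through 3.381% to 3.168% (2.882 to 3.474). Pdgfa was open in 6.331%, 8.046% and 7.712% of nuclei, Pdgfb in 4.387%, 5.319% and 3.458%, and Pdgfrl in 6.187%, 6.148% and 6.734%. The thinned shares had the order of the summed CPM at all 7 loci. Both come from the same counts, so this adds no separate support. For Pdgfra outside promoters the share was 1.928% (1.601 to 2.301), 3.012% and 4.349% (4.015 to 4.703), in order of stage. Thinning does not even out the called width, which was 4.138, 3.606 and 7.980 kb for these regions. Per kb they held 4.486, 7.298 and 5.732 CPM, highest at E14.5, so the order depends on the width.

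Whether the receptors open in the same nuclei was then asked. At E12.5, 92 of 6223 nuclei had both Pdgfra and Pdgfrb open, where 98.32 would be found if the loci opened independently, a ratio of 0.936 (0.754 to 1.15). At E14.5 the ratio was 0.995 (0.894 to 1.11), with 351 nuclei, and at E16.5 0.936 (0.815 to 1.07), with 218. Pdgfrb was open in 10.66% of nuclei with an open Pdgfra locus and 11.51% of the others at E12.5. The same shares were 10.42% and 10.48% in the E14.5 library and 10.08% and 10.91% in that of E16.5. Every interval held 1, so neither joint opening nor exclusion was detectable at this depth.

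At greater depth the ratios at E14.5 and E16.5 were slightly above 1. With each library thinned to its own 25th percentile (2410 fragment equivalents at E14.5 and 5656 at E16.5), Pdgfra was open in 5078 of 15020 nuclei at E14.5 and 6269 of 10537 at E16.5, and the ratios were 1.05 (0.988 to 1.11) and 1.02 (0.986 to 1.06). These bounds hold for the depth used, and a ratio has little room above 1 where a locus is open in most nuclei. They take the joint count as Poisson, which is too wide where both loci are open in many nuclei. Whether a small excess lies beyond counting error therefore cannot be read from them. Pdgfrb was open in 23.10% (21.95 to 24.28) of nuclei with Pdgfra open and 21.52% (20.72 to 22.35) of the others at E14.5. At E16.5 these shares were 45.05% (43.81 to 46.29) and 42.53% (41.04 to 44.03). The odds ratios at the same depth, for which no interval is given, were 1.095 and 1.108, both above 1. In nuclei that were not thinned, compared within 10 equal groups by depth, the odds ratio of the pair was 1.03, 1.08 and 1.23 in stage order. Depth still varies within such a group, and its part was not tested. Over all 21 pairs of the 7 loci and all 3 stages, the ratio at the common depth of 1074 fragment equivalents was 0.71 to 1.27 with a median of 0.995, and 3 of 63 intervals did not hold 1. The lowest was Pdgfb with Pdgfrl at E12.5 and the highest Pdgfrb with Pdgfa at E12.5. At the greater depths the E16.5 pairs lay between 0.926 (Pdgfb with Pdgfrl) and 1.09 (Pdgfb with Pdgfd).

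**Figure D4:**
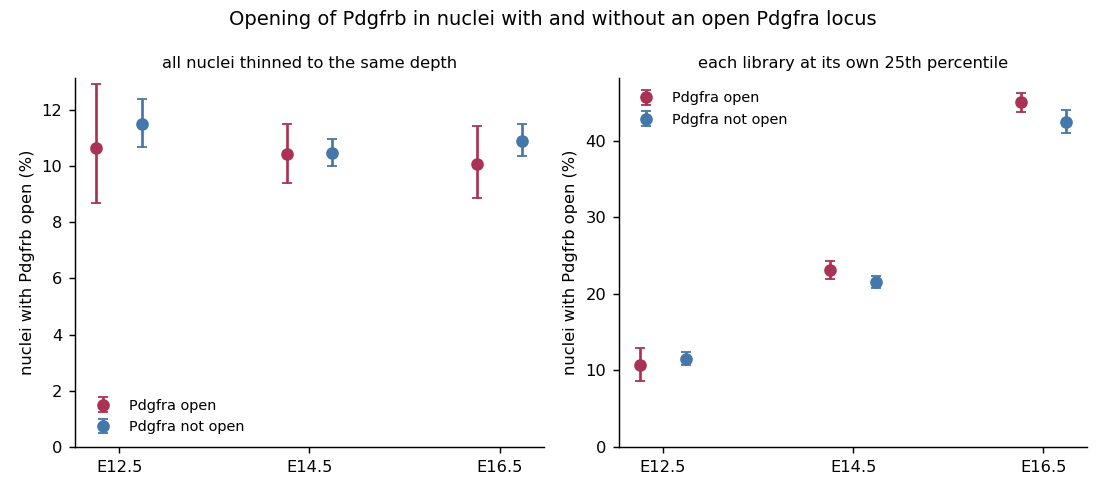
Share of nuclei with the Pdgfrb locus open (y axis, percent, from 0) among nuclei with an open Pdgfra locus (red) and the others (blue) by stage (x axis), with exact 95% binomial intervals, after thinning to 1 depth (left) or to each library's own 25th percentile (right). The shares of a stage lie close together in both panels, 10.08% and 10.91% at E16.5 on the left and 45.05% and 42.53% on the right.

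Nuclei were next grouped by how many loci of a lineage list were open in the thinned nucleus, taking the smallest score that left at most 10% of nuclei inside the gate. Such a gate is a range of a score and not a cell type, and no list holds a PDGF gene. At 1074 fragment equivalents, 4 of 231 combinations of stage, gate and member had intervals inside and outside the gate that did not overlap, beside 2.21% of such combinations over other loci. The other loci are those of autosomal protein-coding genes outside the gate's list whose share of open nuclei lay within the range of the members. With each library at its own 25th percentile it was 20 (5.02% over other loci), of which 17 of 77 were at E16.5, the deepest library (9.29%). When the thinning was repeated with another random seed 13 stayed apart (2.16%), 12 of them at E16.5 (5.14%). The share over other loci varied between the gates at E16.5, from 0.08267% to 25.28% with both seeds, and is given with each gate below. The repeat draws from the same nuclei and is not a replicate. The greater depth was added after the values at the common depth had been seen, and the values below are those at E16.5 and 5656 fragment equivalents.

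In the pericyte gate (at least 4 of 9 loci, 945 nuclei, 743 of them at the cut and 1971 just below it) Pdgfra was open in 60.11% of nuclei inside and 59.43% outside. Pdgfrb was open in 47.09% (43.87 to 50.33) inside and 43.72% (42.73 to 44.72) outside, intervals that overlapped. At E14.5 the corresponding Pdgfrb shares were 24.67% and 21.96%, and at E12.5 10.54% and 11.44%, also overlapping. A difference in either receptor between the pericyte gate and the other nuclei was not detectable at any of these depths. At E16.5 this gate separated few loci of any kind, 1.820% of other loci with 1 seed and 0.1746% with both.

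Pdgfrb was more often open in the dermal fibrogenic gate (at least 6 of 11 loci, 831 nuclei, 1353 just below the cut), in 49.94% (46.49 to 53.39) inside and 43.52% (42.53 to 44.51) outside. Pdgfrl was too, in 36.70% and 28.82%. Both differences stayed apart with the other seed, as 8.217% of other loci did in this gate. The Pdgfra shares of this gate, 61.01% and 59.37%, overlapped. In the fibrogenic gate (478 nuclei) Pdgfc was less often open, in 18.41% (15.04 to 22.18) inside and 24.38% (23.54 to 25.23) outside, whereas Pdgfra (60.88% and 59.43%) and Pdgfrb (44.98% and 43.98%) overlapped. With both seeds 2.068% of other loci were apart in this gate.

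In the chondrogenic gate (at least 6 of 12 loci, 652 nuclei, 580 just below the cut) 2 ligand loci were more often open, Pdgfb in 24.69% (21.43 to 28.19) inside and 16.30% outside and Pdgfc in 31.44% (27.89 to 35.16) and 23.62%. Pdgfrl was less often open, in 21.78% and 29.94%. Pdgfrb was open in 38.96% and 44.36%, which did not overlap with the first seed and overlapped with the second (40.72% and 44.96%). In this gate 17.20% of other loci were more often and 8.080% less often open inside with both seeds, so differences of this kind were common there. Nuclei of this gate had a median of 52.72% of their fragment equivalents at promoters against 47.03% outside, and the part of this in the shares was not tested.

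The epithelial gate (at least 3 of 6 loci, 348 nuclei, 1240 just below the cut) was the gate in which both receptors were less often open. Pdgfra was open in 45.40% (40.09 to 50.80) inside and 59.98% (59.02 to 60.93) outside, and Pdgfrb in 29.31% (24.58 to 34.40) and 44.53%. Pdgfc was more often open, in 36.21% (31.15 to 41.50) and 23.69%, and so was Pdgfb, in 21.84% and 16.65%. With the other seed the receptor shares inside were 50.61% and 35.98%, still apart from those outside. Of other loci 10.50% were more often and 5.943% less often open in this gate with both seeds. The promoter share was again higher inside, 52.86% against 47.16%, and its part was not tested.

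The other differences that held with both seeds were a higher share of Pdgfd in the tenogenic gate at E16.5 (17.53% and 13.21%), a higher share of Pdgfrl in the myogenic gate at E16.5 (38.59% and 29.28%, 184 nuclei), and a lower share of Pdgfd in the MP gate at E14.5 (4.080% and 6.885%). Over other loci these gates separated 3.023%, 0.1745% and 0.1820%. No gate separated Pdgfa with both seeds at any stage.

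**Figure D5:**
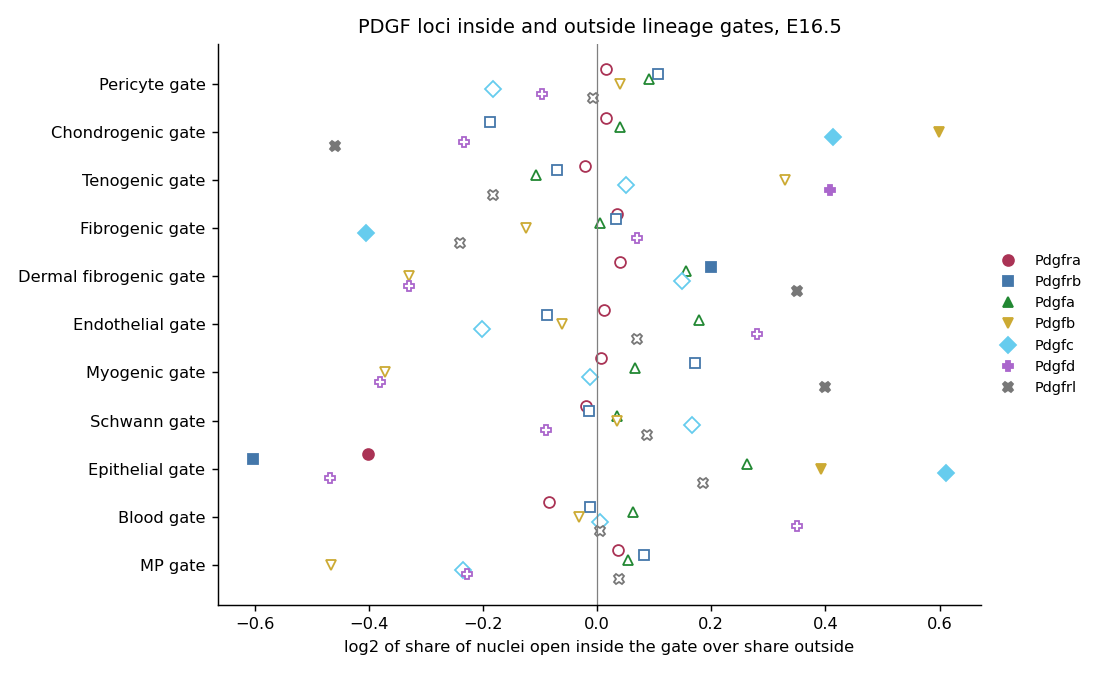
Log2 of the share of nuclei with a locus open inside a gate over that outside (x axis) at E16.5, for 11 lineage gates (y axis) and the 7 members (symbols), each nucleus thinned to 5656 fragment equivalents; filled symbols mark intervals that did not overlap with either random seed. The epithelial row has Pdgfra and Pdgfrb to the left of 0, and the Pdgfra circles of all other gates are open.

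Genes open most often in the same nuclei as a receptor were not stable. At the common depth 0 of the 5 genes with the highest ratio of observed to expected nuclei were found again with another seed, for either receptor at any stage, and the median ratio over the 3087 to 13939 genes was 0.990 to 1.0. At each library's own depth, Gm20547 (1.32) at E14.5 and 1700025F22Rik (1.30) and Adh4 (1.28) at E16.5 were among the 5 highest for Pdgfrb with both seeds, and no gene was for Pdgfra. Over all genes with a value the ratio for Pdgfrb at E16.5 lay between 0.940 and 1.05 from the 5th to the 95th percentile. Among the marker loci at E16.5, Cdh1, a cadherin of epithelium, had the lowest ratio with both receptors, 0.899 with Pdgfra and 0.884 with Pdgfrb. It was picked as the extreme of these loci and no interval is given. Cdh1 is also on the list of the epithelial gate, so its ratios are not separate from the receptor shares of that gate.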

How the data were processed

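The authors deposited counts: each value is a whole number of transposase cuts within a peak in a nucleus, made with the Cell Ranger ATAC pipeline on mm10 and not normalised. The methods and the submitters' processing notes name version 1.1.0, whereas the file headers name 1.0.1 for the E12.5 and E14.5 matrices and 1.2.0 for that of E16.5. Each library had its own peak calls, whose lists carry no scores, and every peak fit within the GRCm38 chromosome lengths. The total counts and median per nucleus stand in the report, and their precision is given as exact Poisson or Clopper-Pearson intervals (95%), computed on fragment equivalents (counts divided by 2, rounded up), which cover counting error only.

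Genes were placed by the GENCODE basic annotation and a promoter reached from 1000 bp before a start to 100 bp after it. Other genes were summed over the gene body and the 2000 bp upstream. Genes were named by a rule: for each member its own promoter region, its most open other region, its largest rise and its largest fall, and for the pathway list the 3 largest rises and falls. For likeness to a receptor the 5 genes of highest ratio were taken, with at least 50 expected nuclei and none within 500 kb; only those found with both seeds are named, which departs from the rule, and 1 of these is not reported here. The 7 members and all gene lists were chosen with earlier results of these data known. Nuclei are not replicates, so no test was run, and the share of other loci set beside the gates was added after the members' values were seen. All deposited nuclei were used, no doublet caller was run, and leaving out the deepest 5% of each library was an alternative. Ratios and pair statistics were checked on simulated counts. Python 3.11.15, NumPy 2.4.6, SciPy 1.17.1, pandas 2.3.3 and matplotlib 3.10.9 were used.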

Additional observations from a re-analysis of the deposited data

How the results depend on the processing

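No paired analysis was possible because each stage has 1 library, and no replicate could be left out. The direction of each PDGF locus from E12.5 to E16.5 is covered in the report. The cause of a change was not tested in any case below, except where the alternative takes fewer regions. At matched positions (14 regions) 3 member regions were higher and 3 lower from E12.5 to E14.5 (16.49% and 18.81% of all matched regions), 2 and 4 from E14.5 to E16.5 (11.89% and 17.32%), and 3 and 4 from E12.5 to E16.5 (16.05% and 23.08%), and 2 loci were lower from E12.5 to E14.5. Per kb of called width, 14 regions were higher and 0 lower from E12.5 to E14.5 (35.31% and 4.333% of all regions). From E14.5 to E16.5 the same scale gave 1 and 21 (2.455% and 46.45%). Of the loci 1 was higher and 0 lower, then 6 lower. No share over all genes is given for any count of loci in this paragraph, so these counts are not read as a trait of the members. The Pdgfd ratio of E14.5 over E12.5 reversed, to 0.092, and 0 pathway genes were higher from E12.5 to E16.5. At a fold threshold of 2, 7 regions were higher and 4 lower from E14.5 to E16.5 (19.70% and 6.818% of all). With all peaks of each library, 2 loci were lower from E12.5 to E14.5 and 0 from E14.5 to E16.5, and with own promoters only 1. With peaks of the 2 stages compared, an alternative chosen after seeing the data, 22 regions were lower from E12.5 to E16.5.

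For the receptor pair, regions outside promoters gave ratios of observed to expected nuclei of 0.434 at E12.5, on 2 nuclei, and 1.07 at E16.5, and the odds ratio at E16.5 was 1.23 without thinning over 10 equal groups by depth. In gates of at most 5% of nuclei the shares inside over outside were 0.265 for Pdgfrb in the pericyte (33 nuclei) and 0.282 in the fibrogenic gate (31 nuclei) at E12.5, 1.1 for Pdgfra in the fibrogenic gate at E14.5 (168 nuclei), and 0.471 for Pdgfra and 1.38 for Pdgfrb in the pericyte gate at E16.5 (81 nuclei), and in each the intervals inside and outside overlapped. At each library's own depth, also added later, Pdgfrb in the chondrogenic gate at E16.5 had 0.878, against 1.14 at the common depth. With another random seed 0 of the 5 genes most like either receptor were found again at the common depth. All other counts of regions, loci and pathway genes stayed within 1.5 times under the alternatives run. Depth limits every statement within nuclei, most of all at E12.5.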
